A study of Schizosaccharomyces pombe with 6 samples.

Results

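The small nucleolar RNA (snoRNA) genes of fission yeast, Schizosaccharomyces pombe, were followed in RNA-seq libraries made from poly(A)+ RNA. All rows that the deposited annotation types as snoRNA were taken, which gave 57 of the 6986 gene IDs, and the 43 of them with at least 10 counts summed over the 6 libraries are described here. Of the 43, 37 passed the low-count filter of the test across all genes. The strains were h+ spx1∆::kanMX, called spx1Δ, in which a kanMX cassette replaces the open reading frame of spx1, and the parental h+ strain, called wild type; spx1 encodes a protein with an SPX domain, which can bind inositol pyrophosphates, and a RING finger. Both were grown in rich YES medium at 30°C to log phase, and 3 biological replicates of each were sequenced. The product text states box H/ACA for 15 of the 43 genes and no box for the other 28. The single row whose product states box C/D, snoZ30, had 0 counts in every library, so box C/D could not be followed as a stated class.

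snoRNAs are stable nuclear RNAs that assemble with proteins and pair with ribosomal RNA. Box C/D snoRNAs carry the sequences called C box and D box and mostly guide methylation of riboses, while box H/ACA snoRNAs end in a conserved ACA and mostly guide the change of uridine to pseudouridine. A few, such as U3, U14 and U17 (also called snR30), are needed for cutting the precursor of ribosomal RNA. A yeast snoRNA gene may have its own promoter, may lie in a cluster that is transcribed as a unit, or may lie in an intron of a host gene and be released after splicing. Mature snoRNAs carry no poly(A) tail, and in fission yeast polyadenylated precursors are trimmed by the nuclear exosome with the poly(A) binding protein Pab2. Poly(A)+ selection therefore favors tailed forms, but counts per gene do not show which form the reads came from. The counts below do not give the level of all forms of a snoRNA. Since each library pools a whole culture, more cells with an RNA and more RNA per cell cannot be told apart.

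Total counts were 24696086, 21653762 and 20929960 in spx1Δ replicates 1, 2 and 3, and 15282140, 11539278 and 14560026 in wild-type replicates 1, 2 and 3, so that depth went with strain. The gene spx1 itself fell in every spx1Δ library, with 2163, 2185 and 2062 normalized counts there, against 5436, 5290.4 and 5153 in wild type (log2 fold change -1.31, SE 0.05, edgeR adjusted p = 1.07e-04); counts per gene do not show which part of the locus the remaining reads cover. A normalized count is a count divided by the TMM-scaled size of its library and multiplied by the mean of these sizes over the 6 libraries. spx1Δ replicate 1 stood apart from replicates 2 and 3: its log2 values over all genes tested had a Pearson coefficient of 0.968 and 0.982 with them, against 0.996 between replicates 2 and 3 and 0.995 to 0.996 among the wild-type libraries. With the 3 wild-type libraries its coefficients were 0.974 to 0.975, above that with spx1Δ replicate 2. Of 6127 genes tested, 27.6% were called higher and 25.4% lower in spx1Δ (adjusted p of 0.05 or less), with a median log2 fold change of -0.01. All genes in this text were tested in that same fit, by edgeR's quasi-likelihood test with Benjamini-Hochberg adjustment over the 6127 genes, and "called" means an adjusted p of 0.05 or less.

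Sequences are shown first for the 3 genes with box H/ACA stated that had the largest fold changes, with the last ACA in capitals; they were read by gene ID from RefSeq assembly ASM294v3 and are written 5′ to 3′ as DNA.
snR93, chrII:3172781-3172923, plus strand: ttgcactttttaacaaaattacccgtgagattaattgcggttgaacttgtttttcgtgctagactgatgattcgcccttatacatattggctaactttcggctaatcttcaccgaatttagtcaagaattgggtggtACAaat
snR98, chrI:2330437-2330647, minus strand: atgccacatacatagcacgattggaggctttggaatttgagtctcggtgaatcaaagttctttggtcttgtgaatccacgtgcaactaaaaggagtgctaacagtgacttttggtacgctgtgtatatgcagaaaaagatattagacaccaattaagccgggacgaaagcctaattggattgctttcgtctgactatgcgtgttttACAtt
snR33, chrII:2447904-2448048, minus strand: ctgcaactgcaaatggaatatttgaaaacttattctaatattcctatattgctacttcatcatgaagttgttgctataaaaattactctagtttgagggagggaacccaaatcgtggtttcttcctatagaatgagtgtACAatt
A second set shows the sequence pattern of genes whose product states no box, with the letters TGATGA (the C box core) near the start and CTGA (the D box) near the end in capitals. snr79, snoZ16 and snoR69b are genes called higher that are not inside another gene on their strand, snoZ15 and snoR58 lie in introns and were not called, and snoZ8 lies in a noncoding RNA and had 0 counts.
snr79, chrI:2705950-2706037, plus strand: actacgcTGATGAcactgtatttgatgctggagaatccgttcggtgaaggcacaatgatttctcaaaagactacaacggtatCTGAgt
snoZ16, chrI:1234963-1235045, plus strand: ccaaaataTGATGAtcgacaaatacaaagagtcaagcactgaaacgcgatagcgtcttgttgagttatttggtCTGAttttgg
snoR69b, chrI:4154912-4155002, plus strand: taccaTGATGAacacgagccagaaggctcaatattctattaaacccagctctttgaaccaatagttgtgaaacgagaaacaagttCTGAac
snoZ15, chrII:1756122-1756222, minus strand: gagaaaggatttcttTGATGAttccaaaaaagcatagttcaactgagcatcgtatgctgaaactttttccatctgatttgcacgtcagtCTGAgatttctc
snoR58, chrI:5366223-5366297, minus strand: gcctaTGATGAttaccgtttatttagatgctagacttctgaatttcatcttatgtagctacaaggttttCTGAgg
snoZ8, chrI:526726-526803, plus strand: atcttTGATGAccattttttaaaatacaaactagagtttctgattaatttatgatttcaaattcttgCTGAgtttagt
The last is snu32, which encodes U3B, a copy of U3. It is shown because bases 1 to 90, in capitals, occur at a second place in the genome, which bears on its counts below.
snu32, chrII:3958832-3959086, minus strand: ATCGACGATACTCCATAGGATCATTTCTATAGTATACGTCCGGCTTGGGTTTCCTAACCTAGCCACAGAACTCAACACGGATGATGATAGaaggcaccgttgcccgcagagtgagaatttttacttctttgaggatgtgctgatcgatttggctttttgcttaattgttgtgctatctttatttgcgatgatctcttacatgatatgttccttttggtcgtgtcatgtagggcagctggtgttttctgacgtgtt

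These marks were counted over all 57 snoRNA rows of the table. ACA stood in the last 10 bases of 15 of the 19 rows with box H/ACA stated (78.9%), and TGATGA stood in the first 30 bases of 0 of them. Among the 37 rows with no box stated, 18 had TGATGA in the first 30 bases (48.6%), 29 had CTGA in the last 30 bases (78.4%) and 17 had both (45.9%). Of 7133 reference long noncoding RNA genes of at least 60 bases, searched in the same windows on the transcribed strand only, 0.743% held TGATGA, 7.56% CTGA, 0.196% both and 13.4% ACA. CTGA and TGATGA share letters where they stand as CTGATGA. The rows with no box stated thus held many genes with box C/D letters, but also snR30 (U17), which is of the H/ACA kind in other yeasts and ended in ACA, and they are called here by what the product text says.

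In spx1Δ cells, 20 of the 37 snoRNA genes tested rose and none fell. This is 54.1% higher, beside 27.6% of all genes tested, 21.2% of 4986 protein-coding genes (30.2% of which were lower) and 56.3% of 1074 noncoding RNA genes, so the share was near that of the noncoding RNA genes. The count of 0 lower stood beside 25.4% of all genes and 4.19% of noncoding RNA genes. At an unadjusted p under 0.05, 22 snoRNA genes were higher and 0 lower, beside 31.4% and 30.5% of all genes, and DESeq2 called 20 higher and 0 lower on its own adjusted p. The median log2 fold change was 0.74 over the 37 genes, with 27 positive and 10 negative values. Of the 20, 12 changed at least 2-fold, where 10.9% of all genes and 41.3% of noncoding RNA genes did so upwards. In 22 of the 37 genes all spx1Δ libraries lay above all wild-type libraries (32.7% of all genes) and in 1 gene, snR70, all lay below (33.5% of all genes).

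By position in the RefSeq annotation, the 43 genes fell into 32 with no gene around them on their strand and 11 inside an intron of a protein-coding gene on the same strand. All 20 genes that rose were among the 30 of the first kind that were tested (66.7%), whose median log2 fold change was 0.88. The shares over all genes tested were 27.6% higher and 25.4% lower, and over noncoding RNA genes 56.3% and 4.19%. Of the 7 intronic genes tested, 0 were called in either direction, 0 had an unadjusted p under 0.05 and 0 were called by DESeq2. Their median was -0.29, from -0.59 for snoU24b to 0.76 for snoR38. The intronic genes tested had fewer counts, with a median wild-type mean of 27.6 normalized counts (range 19.8 to 54.4), beside 118 for the genes that rose (range 19.9 to 1467), and the difference between the 2 kinds of position was not tested.

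**Figure D1:**
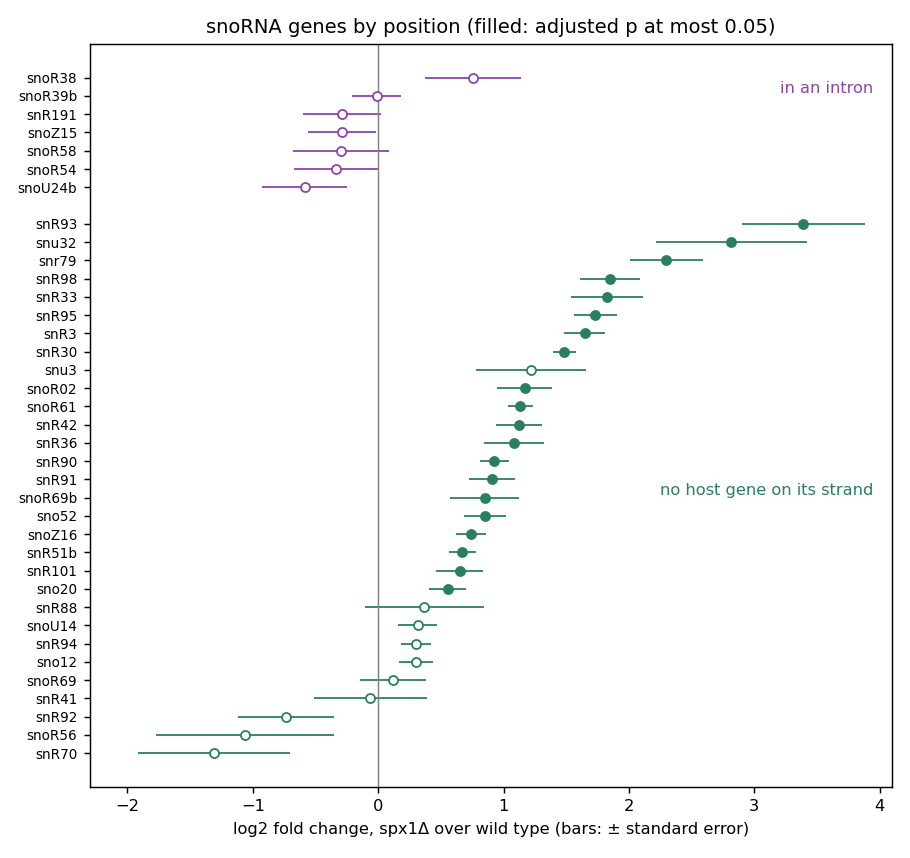
log2 fold change of spx1Δ over wild type for each of the 37 snoRNA genes tested (horizontal axis, bars ± standard error), with the 7 genes in introns above and the 30 genes with no host on their strand below; filled points have an adjusted p of at most 0.05. The 20 filled points all lie to the right of 0 among the genes with no host, from 0.55 for sno20 to 3.39 for snR93, and the intronic genes lie between -0.59 and 0.76.

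Box H/ACA genes made up 11 of the 20 that rose. Of the 14 tested, 11 were higher (78.6%) and 0 lower, with a median log2 fold change of 1.00. Among all genes tested 27.6% were higher and 25.4% lower, and among noncoding RNA genes 56.3% and 4.19%. Of the snoRNA genes with no host on their strand and no box stated, 9 of 16 tested were higher (56.2%), and the difference was not tested. The remaining 3 box H/ACA genes tested were sno12, snR94 and snR92. snR93, whose ACA end is printed above, changed most of all snoRNA genes. It had 189, 615 and 495 normalized counts in spx1Δ replicates 1, 2 and 3, against 48.3, 44.0 and 31.3 in wild-type replicates 1, 2 and 3 (log2 fold change 3.39, SE 0.49, edgeR adjusted p = 0.00423). The strains did not overlap, and replicate 1 was the lowest of the spx1Δ libraries. snR98 had 247, 399 and 402 in the spx1Δ libraries, against 83.4, 111 and 97.5 in the wild-type libraries (log2 fold change 1.85, SE 0.24, edgeR adjusted p = 0.00356). snR33, named after a guide of pseudouridine in the large ribosomal RNA of budding yeast, had 289, 604 and 495 in the spx1Δ libraries, against 140.2, 111 and 139 in the wild-type libraries (log2 fold change 1.83, SE 0.29, edgeR adjusted p = 0.00513). In snR98 and snR33, spx1Δ replicate 1 was nearest to wild type, while the highest library was replicate 3 for snR98 and replicate 2 for snR33.

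The most abundant box H/ACA gene by mean count was snR95, with 831, 1189 and 1208 in the spx1Δ libraries, against 291, 357 and 325 in the wild-type libraries (log2 fold change 1.73, SE 0.17, edgeR adjusted p = 0.00203). snR3, a pseudouridine guide in budding yeast, had 139, 170.3 and 152 in the spx1Δ libraries, against 45.9, 48.9 and 52.5 in the wild-type libraries (log2 fold change 1.65, SE 0.16, edgeR adjusted p = 0.00203). The 3 spx1Δ libraries of snR3 were close to one another, unlike those of snR93. snR42 had 151, 122 and 123 in the spx1Δ libraries, against 68.9, 52.2 and 60.02 in the wild-type libraries (log2 fold change 1.12, SE 0.18, edgeR adjusted p = 0.00556). snR36 had 138, 101 and 97.0 in the spx1Δ libraries, against 58.0, 39.1 and 60.02 in the wild-type libraries (log2 fold change 1.08, SE 0.24, edgeR adjusted p = 0.0128). In snR42 and snR36, also named after budding yeast guides, replicate 1 was the highest of the spx1Δ libraries, so this library was not low for every gene.

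Smaller rises were measured for snR90 (log2 fold change 0.93), snR91 (0.91), snR101 (0.65) and sno20 (0.55), and all were above wild type without overlap. snR101 was the second most abundant of the class, with 389, 617 and 598 in the spx1Δ libraries, against 355, 319.5 and 346 in the wild-type libraries (log2 fold change 0.65, SE 0.19, edgeR adjusted p = 0.0281). Its first spx1Δ library lay just above the highest wild-type library, and the calls of snR101 and sno20 were lost when single libraries were left out, with adjusted p-values of 0.0699 to 0.0988 and 0.0631 to 0.0856 in those fits. sno12, also known as snR99, had 392.4, 338 and 308 in the spx1Δ libraries, against 280.3, 311 and 253 in the wild-type libraries (log2 fold change 0.30, SE 0.14, edgeR adjusted p = 0.105), and the strains overlapped. snR94 averaged 254 ± 12.14 in spx1Δ and 205 ± 16.5 in wild type (SD, n = 3 each) (log2 fold change 0.30, SE 0.12, edgeR adjusted p = 0.0684). It did not pass the test although its libraries did not overlap. snR92 averaged 33.9 ± 10.5 in spx1Δ and 57.1 ± 23.03 in wild type (SD, n = 3 each), overlapped, and had the only negative value of the class (log2 fold change -0.73, edgeR adjusted p = 0.143).

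**Figure D2:**
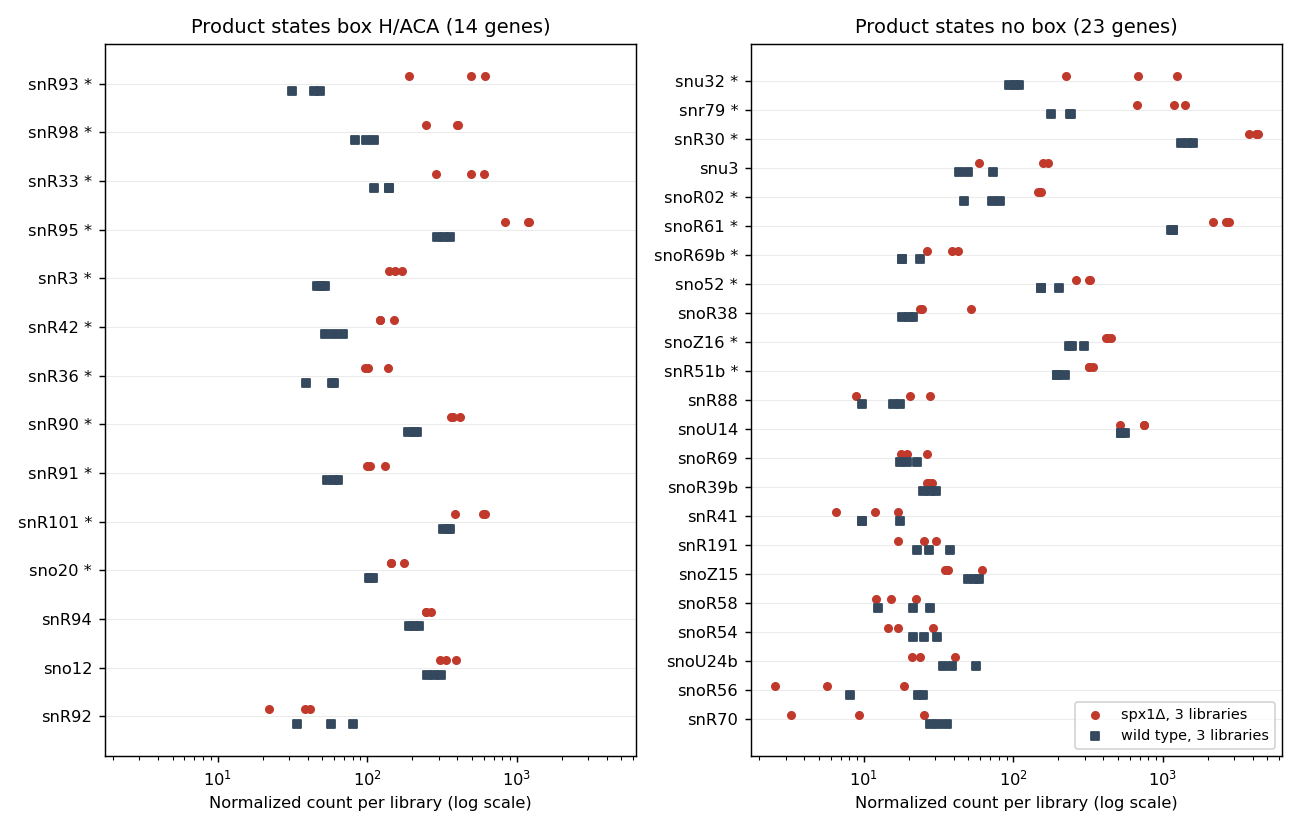
Normalized count in each library (horizontal axis, log scale) of the 37 snoRNA genes tested, with the 14 genes whose product states box H/ACA on the left and the 23 with no box stated on the right; circles are the 3 spx1Δ libraries, squares the 3 wild-type libraries, and an asterisk marks an adjusted p of at most 0.05. For snR93 at the top left the circles lie between 189 and 615 and the squares between 31.3 and 48.3, while for snR70 at the bottom right all circles lie left of the squares.

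Among the RNAs that act in ribosomal RNA cutting, snR30 (U17) and the U3B gene rose, while snu3, the other U3 gene, and U14 did not pass the test. snR30 had the most counts of all snoRNA genes, with 4339, 3735 and 4212 normalized counts in spx1Δ replicates 1, 2 and 3, against 1326, 1593 and 1482 in wild-type replicates 1, 2 and 3 (log2 fold change 1.48, SE 0.09, edgeR adjusted p = 6.61e-04). Its strains were far apart beside the spread within each, which made it the gene with the lowest adjusted p among the members. snoU14, the gene of U14, had 517, 742 and 749 in the spx1Δ libraries, against 526, 528 and 561 in the wild-type libraries (log2 fold change 0.31, SE 0.15, edgeR adjusted p = 0.123). Here spx1Δ replicate 1 lay below the wild-type libraries and replicates 2 and 3 above them; without replicate 1 the log2 fold change was 0.46 (edgeR adjusted p = 2.13e-04).

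Scaled to the annotated length, levels were highest for snR30 and snr79 in spx1Δ and for snoU14 and snR30 in wild type. snR30 had mean levels of 12562 normalized counts per kilobase in spx1Δ and 4499 in wild type. snr79 had 12382 in spx1Δ and 2508 in wild type. snoU14 had 5977 in spx1Δ and 4807 in wild type. Annotated lengths of the 57 rows were 47 to 653 bases, and reads of 51 bases from fragments that reach past a short gene make these levels per length approximate.

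The U3 RNA has a gene pair in the table, snu3 (listed as U3) and snu32 (listed as U3B). snu32 had 226, 1243 and 685 normalized counts in spx1Δ replicates 1, 2 and 3, against 103, 109 and 93.8 in wild-type replicates 1, 2 and 3 (log2 fold change 2.82, SE 0.60, edgeR adjusted p = 0.0114). The spx1Δ libraries differed 5.50-fold between the highest and the lowest, and all were above wild type, where the libraries were close together. snu3 had 59.2, 169.5 and 157 in the spx1Δ libraries, against 43.5, 73.4 and 50.01 in the wild-type libraries (log2 fold change 1.22, SE 0.44, edgeR adjusted p = 0.0533). spx1Δ replicate 1 of snu3 lay within the wild-type range, and without it the log2 fold change was 1.58 (edgeR adjusted p = 5.96e-05). The call of snu32 was lost without wild-type replicate 3, with a log2 fold change of 2.77 and an adjusted p of 0.0533. Without spx1Δ replicate 2, its highest library, the log2 fold change was 2.16, still called (edgeR adjusted p = 0.0155).

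The counts of snu32 are uncertain for a repeated part. Of its 205 windows of 51 bases, the read length, 40 occur more than once in the reference genome. They make up its bases 1 to 90, and the second copy lies 122 to 33 bases upstream of the annotated start of snu3 on the same strand. A local alignment paired bases 125 to 255 of snu32 with bases 3 to 134 of snu3, with 115 identical bases. The annotated snu3 and snu32 intervals are thus offset from each other, and the sources used here do not give how reads mapping to more than one place were counted. No other snoRNA row that is long enough, snu3 included, had a repeated window of this length. The pairs snoR39a and snoR39b, snoR54 and snoR54b, and snoR69 and snoR69b shared 0 such windows, while snoU24, of 47 bases, is too short to hold one.

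The other genes with no box stated that rose were snr79, snoR02, snoR61, snoR69b, sno52, snoZ16 and snR51b. snr79, printed above with its C and D boxes and named after a methylation guide of budding yeast, had 675, 1409.6 and 1184 in the spx1Δ libraries, against 240.5, 178 and 244 in the wild-type libraries (log2 fold change 2.30, SE 0.29, edgeR adjusted p = 0.00356). snoR61, also named after such a guide, had 2172, 2771 and 2651 in the spx1Δ libraries, against 1125, 1174 and 1163 in the wild-type libraries (log2 fold change 1.13, SE 0.10, edgeR adjusted p = 0.00170). It was the second most abundant snoRNA gene by count, and its annotation of 653 bases is the longest of the 57 rows. snoR02 had 150.3, 145 and 154 in the spx1Δ libraries, against 47.1, 81.5 and 72.5 in the wild-type libraries (log2 fold change 1.17, SE 0.22, edgeR adjusted p = 0.00821). The strains did not overlap in any of these 3 genes.

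snoZ16 and snR51b had little spread in either strain. snoZ16 averaged 431 ± 14.2 in spx1Δ and 259 ± 32.0 in wild type (SD, n = 3 each) (log2 fold change 0.74, SE 0.12, edgeR adjusted p = 0.00544). snR51b averaged 327 ± 11.97 in spx1Δ and 205 ± 13.97 in wild type (SD, n = 3 each) (log2 fold change 0.67, SE 0.11, edgeR adjusted p = 0.00556). sno52 averaged 302 ± 36.6 in spx1Δ and 168 ± 27.8 in wild type (SD, n = 3 each) (log2 fold change 0.85, SE 0.17, edgeR adjusted p = 0.00911), and it was above wild type in all 3 libraries. snoR69b, at low counts, averaged 36.3 ± 8.54 in spx1Δ and 19.9 ± 3.31 in wild type (SD, n = 3 each) (log2 fold change 0.85, SE 0.27, edgeR adjusted p = 0.0390). Its call was lost with DESeq2, at an adjusted p of 0.0873, with the replicate number as a block, at an edgeR adjusted p of 0.0509, and under 5 of the 6 fits that left out a library, where edgeR's adjusted p was 0.0738 to 0.131.

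snR51b is the last gene of a row that also holds snR41 and snR70, on chromosome I in the order snR41, snR70, snR51b, with 141 and 145 bases between neighbors. Genes of the same names form a jointly transcribed cluster of methylation guides in budding yeast. The 3 genes differed in these libraries. snR51b rose. snR41 had 17.03, 6.49 and 11.9 in the spx1Δ libraries, against 9.67, 9.78 and 17.5 in the wild-type libraries (log2 fold change -0.06, SE 0.45, edgeR adjusted p = 0.910), and the strains overlapped. snR70 had 25.2, 3.24 and 9.36 in the spx1Δ libraries, against 31.4, 27.7 and 36.3 in the wild-type libraries (log2 fold change -1.31, SE 0.61, edgeR adjusted p = 0.107), below wild type in every library but not called. Per kilobase, snR51b averaged 3892 normalized counts in spx1Δ and 2443 in wild type, far above snR70 with 117 in spx1Δ and 294 in wild type and snR41 with 137 in spx1Δ and 143 in wild type.

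No snoRNA gene was called lower with all libraries, but 5 were called lower without spx1Δ replicate 1. These were snR70 (log2 fold change -2.34), snoR56 (-2.20), snoU24b (-0.95), snR92 (-0.90) and snoZ15 (-0.60), with edgeR adjusted p-values of 4.45e-04 to 0.0464. In that fit 38.5% of all genes tested were lower and 36.8% higher, and 24 snoRNA genes were higher, the 20 above and snu3, snoR38, snoU14 and snR94. snoR56, named after a methylation guide of budding yeast, had 18.5, 5.68 and 2.55 in the spx1Δ libraries, against 22.96, 8.15 and 25.0 in the wild-type libraries (log2 fold change -1.06, SE 0.71, edgeR adjusted p = 0.236). Its spx1Δ replicate 1 lay within the wild-type range and the other spx1Δ libraries lay below that range. Whether replicate 1 or replicates 2 and 3 stand closer to the usual state of the strain was not tested.

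The intronic snoRNA genes lie in hosts of several kinds, and U24, snR38, snR54, snR191 and snR39 have hosts of the same kinds in budding yeast. snoU24b lies in cpc2, the RACK1 ortholog, snoR38 in the gene of elongation factor EF-1 gamma, snoR54 in gua1, the IMP dehydrogenase gene, snR191 in nog2, a ribosome export GTPase gene, and snoR39b in rpl701. Of the 11 hosts, 4 were called higher and 0 lower, and their median log2 fold change was 0.15. Among all genes tested 27.6% were higher and 25.4% lower, and among protein-coding genes 21.2% and 30.2%. nog2 rose (log2 fold change 0.85, SE 0.08, edgeR adjusted p = 0.00203) while snR191 within it had 17.03, 25.1 and 30.6 in the spx1Δ libraries, against 37.5, 22.8 and 27.5 in the wild-type libraries (log2 fold change -0.29, SE 0.31, edgeR adjusted p = 0.449). snR191 and its host thus had opposite signs, with the strains overlapping for the snoRNA. fta3, spt20 and rlp7, with log2 fold changes of 0.79, 0.38 and 0.64, also rose, but the snoRNA genes in their introns (snoR47, snoU24 and snoR39a) had too few counts for the test.

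Hosts of the other 6 intronic genes tested were not called, with log2 fold changes between -0.12 and 0.19. snoU24b averaged 28.5 ± 10.6 in spx1Δ and 43.1 ± 11.7 in wild type (SD, n = 3 each) and snoZ15, in the prefoldin subunit gene gim6, averaged 44.3 ± 14.9 in spx1Δ and 54.4 ± 4.604 in wild type (SD, n = 3 each). In both, spx1Δ replicates 2 and 3 lay below the wild-type range, while replicate 1 lay within it for snoU24b and above it for snoZ15. snoR58, in the purine synthesis gene ade4, averaged 16.6 ± 5.14 in spx1Δ and 20.5 ± 7.67 in wild type (SD, n = 3 each), and snoR54 averaged 20.1 ± 7.69 in spx1Δ and 25.9 ± 4.88 in wild type (SD, n = 3 each). snoR39b averaged 27.4 ± 0.884 in spx1Δ and 27.6 ± 2.60 in wild type (SD, n = 3 each), with the strains on top of each other. snoR38 had 24.4, 51.9 and 23.8 in the spx1Δ libraries, against 18.1, 21.2 and 20.01 in the wild-type libraries (log2 fold change 0.76, SE 0.38, edgeR adjusted p = 0.132), so that its mean rested on replicate 2.

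As a group, the intronic genes took 13.2, 11.8 and 10.1 CPM (a count relative to the total count of its library, before TMM scaling) in spx1Δ replicates 1, 2 and 3, against 12.6, 12.7 and 12.98 in wild-type replicates 1, 2 and 3 (ratio of means 0.917). These values overlapped between strains. All 57 snoRNA rows together took 731, 951 and 891 CPM in the spx1Δ libraries, against 342, 362 and 368 in the wild-type libraries (ratio of means 2.40). The box H/ACA genes took 254 ± 44.0 CPM in spx1Δ and 109 ± 2.44 in wild type (SD, n = 3 each). The share of all snoRNA genes was higher in every spx1Δ library, and as a share of counts on protein-coding genes the ratio was 2.44. Counts of other noncoding RNA genes were not summed for comparison, but 56.3% of those tested were called higher, so a larger share need not be particular to snoRNA genes. snR30 and snoR61 made up 38.9% to 48.7% of the snoRNA counts in the spx1Δ libraries and 38.8% to 40.7% in the wild-type libraries.

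Counts were at 0 in all 6 libraries for 9 snoRNA rows, and 8 of these lie inside an exon of a noncoding RNA gene on the same strand. They are snoZ8, snoZ7, snoZ5, snoZ4 and snoZ3, which follow one another in psf3-antisense-1, snoZ30 in SPNCRNA.1483, snoR68 in SPNCRNA.1650 and snR97 in rad8-antisense-1. All 8 rows of this position had 0 counts, while of the 38 rows with no host on their strand 1 had 0, sno16, which lies 3 bases downstream of the noncoding RNA SPBC3B8.03-antisense-1. The 4 host RNAs were counted, and all 4 rose, beside 56.3% higher among noncoding RNA genes tested and 27.6% among all genes tested. psf3-antisense-1, the host of the row of Z snoRNAs, had 463, 1522 and 1053 normalized counts in the spx1Δ libraries, against 133, 104 and 136 in the wild-type libraries (log2 fold change 3.02, SE 0.44, edgeR adjusted p = 0.00447). rad8-antisense-1 had a log2 fold change of 1.51, SPNCRNA.1650 of 1.37 and SPNCRNA.1483 of 0.73. The sources used here do not give how a read lying in more than one gene was treated, so a listed 0 in these rows does not show that the snoRNA was absent.

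A further 5 rows had 1 to 9 counts over the 6 libraries and fell under the minimum of 10, namely snoR54b and snr62 with 6 each, snR5 with 4, snR10 with 2 and snR46 with 1. Just inside it were snoU24 and snR96 with 10 each. snr62, snR5, snR10 and snR46 had all their counts in spx1Δ libraries, which were also the deeper ones. The members that the test's filter left out were snR40 with 54 counts in all, snoR47 with 30, snoU18 with 29, snoR39a with 24, and snoU24 and snR96. snR40 had counts of 18, 12 and 6 in the spx1Δ libraries, against 5, 5 and 8 in the wild-type libraries. These 6 genes were not tested, and no difference was read from them.

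The genes next to the members were examined as a description of the loci. The nearest gene upstream on the same strand within 1000 bases was tested for 12 of the genes that rose. Of those neighbors, 4 were higher, 2 were lower and 6 were not called, with a median log2 fold change of 0.13. Among all genes tested, 27.6% were higher and 25.4% lower. rpl29, a ribosomal protein gene ending 85 bases upstream of snR93, did not pass (log2 fold change 0.12, SE 0.07, edgeR adjusted p = 0.172). The upstream neighbor of snR98, neo1, also did not pass (log2 fold change 0.14, SE 0.10, edgeR adjusted p = 0.274), nor did SPBC26H8.13c upstream of snu32 (log2 fold change 0.12, SE 0.08, edgeR adjusted p = 0.258) and gea1 upstream of snoR61 (log2 fold change 0.03, SE 0.04, edgeR adjusted p = 0.551). None of these 4 neighbors passed the test, while the snoRNA gene after each of them rose. SPBC12C2.11, which ends 44 bases upstream of snR33, rose (log2 fold change 0.66, SE 0.17, edgeR adjusted p = 0.0194), and mrp1, the RNA of RNase MRP, which ends 114 bases upstream of snoZ16, rose (log2 fold change 1.72, SE 0.24, edgeR adjusted p = 0.00394). SPAC7D4.05 upstream of snoR02 fell (log2 fold change -1.05, SE 0.13, edgeR adjusted p = 0.00362).

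**Figure D3:**
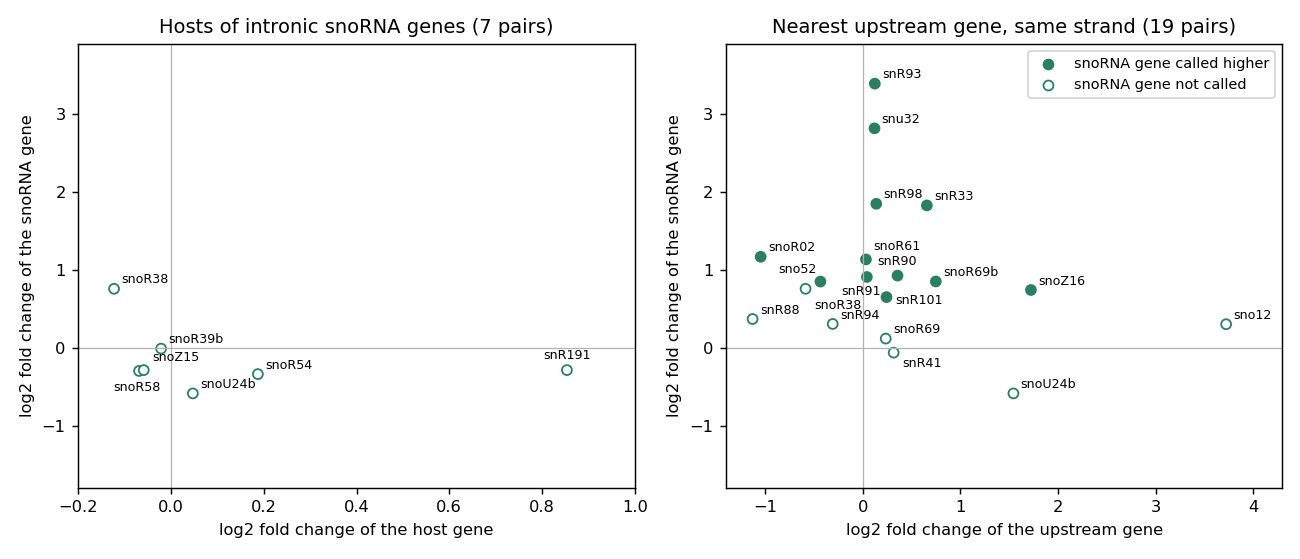
log2 fold change of the snoRNA gene (vertical axis) against that of its intron host (left, 7 pairs) and of the nearest upstream gene on the same strand (right, 19 pairs, other than snoRNA genes), all for spx1Δ over wild type; filled points are snoRNA genes called higher. snR93 and snu32 lie at 3.39 and 2.82 above upstream genes at 0.12 and 0.12, and snR191 lies at -0.29 beside its host at 0.85.

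Members that overlap an annotated gene on the opposite strand were 9 of the 43, and 6 of the 20 that rose. The kit was stranded, but the sources used here do not name the strand setting of the counting, so reads of a gene and of its partner may not be separate. gpi12, across from snr79, fell (log2 fold change -1.38, SE 0.27, edgeR adjusted p = 0.00899). taf9, across from sno52, fell with -0.87, and not3, across from snR90, fell with -0.66. alg3 across from snoR02 (-0.21) and psd1 across from snR36 (-0.02) were not called, and the partner of sno20 was not tested. No tested partner of a snoRNA gene that rose was itself called higher, and the other 14 genes that rose had no partner. The tested partners were few, beside 27.6% higher and 25.4% lower among all genes tested. For protein-coding genes these shares were 21.2% and 30.2%. Whether snoRNA genes and their partners change together was not tested.

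Over the 37 genes, spx1Δ replicate 1 was the nearest to the wild-type mean for 21 genes, replicate 2 for 5 and replicate 3 for 11. Relative to the wild-type mean, the median difference on the log2 scale was 0.48 in replicate 1, 0.86 in replicate 2 and 0.63 in replicate 3. For each of the 7 genes with the largest fold changes, snR93 to snR3, replicate 1 was the lowest spx1Δ library. This did not hold for all genes that rose, since for snR30, next in order, replicate 1 was the highest. Over the 20 genes called higher, the median differences were 1.15, 1.12 and 1.10 in replicates 1, 2 and 3. Replicate 1 was the nearest to wild type for 11 of these 20, replicate 2 for 5 and replicate 3 for 4. Replicate 1 was also the highest for snR70, snoR56, snoU24b, snoR54, snoR58, snoZ15 and snR92, which had negative fold changes. For the first 7 genes and for those just named with negative values, replicate 1 lay nearer to wild type than the other spx1Δ libraries. The other genes with negative fold changes, snR41, snoR39b and snR191, were nearest to wild type in replicate 3. Of the 20 calls, 16 held under all 12 alternatives, and the other 4 were snu32, snoR69b, snR101 and sno20.

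**Figure D4:**
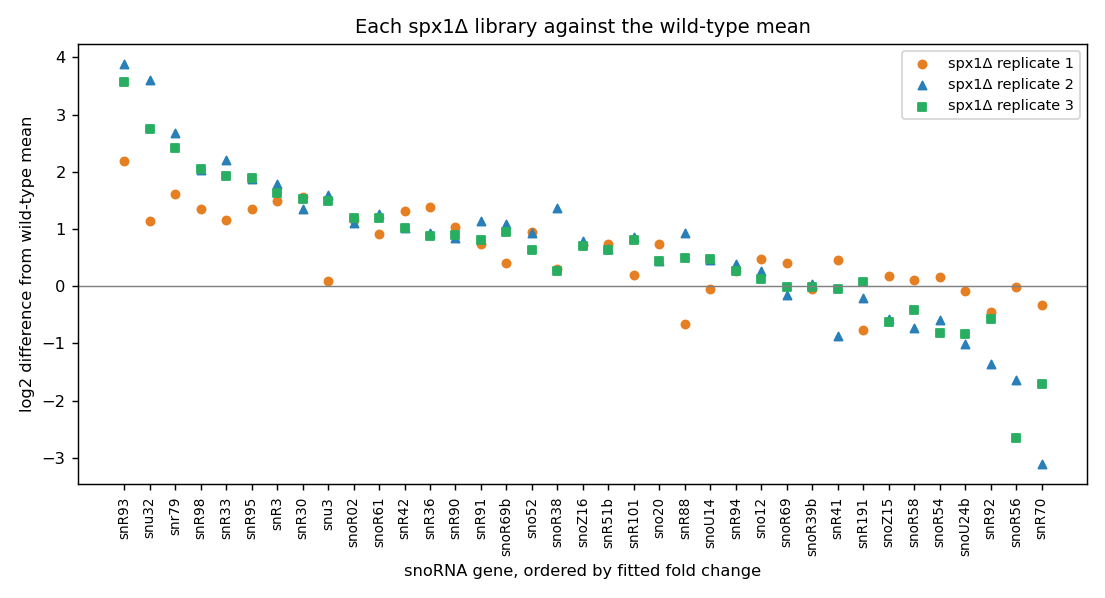
log2 difference of each spx1Δ library from the wild-type mean (vertical axis) for the 37 snoRNA genes tested, ordered by fitted fold change; circles, triangles and squares are spx1Δ replicates 1, 2 and 3. Replicate 1 is at 2.18 for snR93 and -0.33 for snR70, where replicates 2 and 3 are at 3.88 and 3.57 and at -3.11 and -1.71.

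Fold change and gene features were set side by side over the 37 genes as a description, since the genes share libraries and are not independent. Annotated length and log2 fold change had a Pearson coefficient of 0.31 and a Spearman coefficient of 0.52. The log2 wild-type count and the log2 fold change had 0.37 and 0.43. Longer and more abundant snoRNA genes thus had somewhat larger values, and the intronic genes, of 47 to 128 bases, were both short and low in counts. The 15 box H/ACA members, all with no host on their strand, had a median log2 fold change of 1.00 over the 14 tested, and among genes with no host and no box stated 9 of 16 tested rose, with a median log2 fold change of 0.79.

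The genes that make the protein part of snoRNA particles, or assemble it, showed small changes. Of 14 tested, 5 rose, 2 fell and 7 were not called, beside 27.6% higher and 25.4% lower among all genes tested, with a median log2 fold change of -0.02 and 0 changes of at least 2-fold. The assembly factor gene bcd1, for box C/D snoRNAs, rose (log2 fold change 0.61, SE 0.13, edgeR adjusted p = 0.0109), as did shq1, for box H/ACA snoRNAs (log2 fold change 0.51, SE 0.17, edgeR adjusted p = 0.0388). The ATPase genes rvb2 (log2 fold change -0.41, SE 0.07, edgeR adjusted p = 0.00659) and rvb1 (log2 fold change -0.39, SE 0.12, edgeR adjusted p = 0.0351), which also serve chromatin complexes, fell. tgs1, which encodes a cap methyltransferase, had the lowest value of the list and did not pass (log2 fold change -0.44, SE 0.16, edgeR adjusted p = 0.0542). The pseudouridine synthase gene cbf5 had log2 fold change -0.26 and the methyltransferase gene fib1 -0.01, and neither passed. With the replicate number as a block, 2 of the list rose and 4 fell, and the counts with 1 library left out were 1 to 6 higher and 1 to 5 lower.

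Genes for 3′ end formation and decay of RNA, which include those that act on snoRNA precursors, were called in both directions, as were genes overall. Of 21 tested, 10 rose and 7 fell, beside 27.6% higher and 25.4% lower among all genes tested, with a median log2 fold change of 0.10. seb1, which encodes an RNA-binding termination factor, had 6879.7, 10114 and 9695 in the spx1Δ libraries, against 3382, 3528 and 3403 in the wild-type libraries (log2 fold change 1.37, SE 0.15, edgeR adjusted p = 0.00234). ssu72, a phosphatase gene of the cleavage and polyadenylation factor, had 393, 172 and 225 in the spx1Δ libraries, against 522, 545 and 553 in the wild-type libraries (log2 fold change -1.03, SE 0.29, edgeR adjusted p = 0.0259). The strains did not overlap for either gene, and in both spx1Δ replicate 1 was nearest to wild type. rmn1, an RNA-binding protein gene, rose (log2 fold change 0.71, SE 0.17, edgeR adjusted p = 0.0156), and dis3, an exosome nuclease gene, fell (log2 fold change -0.77, SE 0.22, edgeR adjusted p = 0.0260). With 1 library left out, 6 to 10 of the list were higher and 1 to 8 lower, and the lower count dropped to 1 or 2 without spx1Δ replicate 3 or any wild-type library.

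Other stable RNAs that have no poly(A) tail of the messenger kind were set beside the snoRNAs. Of 7 tested, 2 rose and 0 fell, beside 27.6% higher and 25.4% lower among all genes tested and 56.3% and 4.19% among noncoding RNA genes. snu5, the U5 spliceosomal RNA, had 110.3, 255 and 177 in the spx1Δ libraries, against 38.7, 42.4 and 56.3 in the wild-type libraries (log2 fold change 1.97, SE 0.35, edgeR adjusted p = 0.00678). mrp1 had 614, 1148 and 939 in the spx1Δ libraries, against 254, 307 and 259 in the wild-type libraries (log2 fold change 1.72, SE 0.24, edgeR adjusted p = 0.00394). Both lay above wild type in every spx1Δ library, with replicate 1 the lowest. The RNase P RNA rrk1 (log2 fold change 0.12), the telomerase RNA ter1 (0.01) and the U2 RNA snu2 (0.18) were not called, and the U1 RNA snu1 (1.03) and the signal recognition particle RNA srp7 (-0.86) were not called either. srp7 had 149.8 normalized counts in wild-type replicate 1 alone, beside 19.6 and 13.8 in wild-type replicates 2 and 3. Without spx1Δ replicate 1, 4 of the list were higher.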

How the data were processed

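Poly(A)+ RNA of 3 spx1Δ and 3 wild-type cultures was sequenced by the authors as paired reads of 51 bases with a stranded kit. Per the labels and the study's methods, alignment by the authors used HISAT2 2.1.0 on build ASM294v2, then SAMtools, and reads in annotated exons were counted with HTSeq 0.10.0. The deposited table holds these counts, whole numbers with no scaling. The authors' DESeq2 table gave only gene names, product texts and gene types; its columns of means, fold changes and p-values were not used. The sources used here do not give the strand, multiple-mapping and overlap settings of the counting.

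Counts were fitted for the 2 strains, without further terms, in R 4.3.3 with edgeR 4.0.16 (limma 3.58.1; TMM, filterByExpr, glmQLFit, glmQLFTest). One duplicate ID with 0 counts was dropped. Benjamini-Hochberg adjustment ran over the 6127 genes that passed, and the common biological coefficient of variation was 0.149. The standard error is the absolute log2 fold change over the square root of F. The per-library log2 differences have a pseudocount of 0.5. DESeq2 1.42.0, other scalings, no filter, a replicate block and each library left out served as alternatives. Depth was 20929960 to 24696086 counts in spx1Δ and 11539278 to 15282140 in wild type, so counting error weighs mainly on genes of few counts.

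The deposited tables hold no coordinates. Positions, neighbors and sequences come from RefSeq assembly ASM294v3, a later build than the study's, matched by gene ID (57 of 57 snoRNA rows). The members, lists and tests were chosen with earlier results of these data known. By the rule for named genes, library values are given for the 12 called genes with the largest fold changes without overlap, for the 3 most abundant of each box class, for U3, U14 and U17, and for up to 4 called genes of each other list; snR41, snR70, snoR56, snoR38, snR191 and snR40 were added after their values were seen. Of the list of snoRNA particle proteins, naf1 had no ID in the table. Same-numbered replicates of the strains were not treated as pairs.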

Additional observations from a re-analysis of the deposited data

How the results depend on the processing

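The 20 snoRNA genes called higher were 20 with DESeq2 (19 shared), 20 with RLE size factors, 21 with library size only, 22 with scaling on protein-coding genes only, 20 with no low-count filter and 20 with the replicate number as a block (19 shared), and 0 were lower under each of these. Leaving out each library in turn gave 16 to 24 higher and 0 to 5 lower among all snoRNA genes, 9 to 12 and 0 to 1 among box H/ACA genes, 7 to 12 and 0 to 4 among the others, and 0 to 1 and 0 to 2 among intronic genes. It gave 1 to 6 higher and 1 to 5 lower genes of snoRNA particle proteins, 6 to 10 and 1 to 8 of 3′ end and decay, and 2 to 4 and 0 to 0 of other stable RNAs. The lower calls among snoRNA genes all came without spx1Δ replicate 1. The ratio of snoRNA shares was 2.27 to 2.58.

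The replicate block moved the particle protein genes to 2 higher and 4 lower, and scaling on protein-coding genes only left 4 of 3′ end and decay lower. The cause was not tested. Same-numbered replicates of the strains had correlations of their deviations of 0.117, 0.033 and 0.0537, and differently numbered ones -0.132 to 0.0786. With 3 libraries per strain, these values cannot show whether same-numbered replicates were handled together. Over single named genes, 403 alternative values kept their sign and side of the threshold, 14 gained a call, 17 lost one and 10 changed sign with no call on either side. Of the values that changed sign, snoR39b had a log2 fold change of 0.036 with library size only and of 0.064 with scaling on protein-coding genes only, where snR41 had 0.0057. The others came from leaving out 1 library: snoR39b ranged over -0.077 to 0.055, with 0.0038 without spx1Δ replicate 1 and 0.055 without wild-type replicate 1, snR41 over -0.45 to 0.29, with 0.23 without spx1Δ replicate 2 and 0.29 without wild-type replicate 3, snR88 over -0.012 to 0.70 (lowest without spx1Δ replicate 2), snoR69 over -0.078 to 0.23 (lowest without spx1Δ replicate 1) and snoR58 over -0.58 to 5.4e-04 (highest without wild-type replicate 1). Without spx1Δ replicate 1 the calls over all genes were 2268 higher and 2377 lower, and without any other single library 936 to 1323 and 555 to 1070.

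Few counts limit the intronic genes and the 6 members not tested, and the deeper spx1Δ libraries cannot be told apart from strain. Poly(A)+ selection, the repeated part of snu32 and the strand setting limit what a snoRNA count stands for.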
